A study of Mus musculus with 40 samples.

Results

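Peritoneal macrophages were compared with plated stroma-vascular cells from mouse inguinal white fat, both groups taken 24 h after plating. The comparison used 6 of the 40 samples of the series, the 3 titled as isolated peritoneal macrophages and the 3 titled as stroma vascular fraction, chosen by title alone. The series profiled 14 groups of mouse cell lines, tissues and primary cells on nylon filter arrays of 5760 spots, with 1 radioactively labelled sample per filter. The macrophages were washed out of the peritoneal cavity and kept in DMEM-F12 with 10% NCS for 24 h, after which cells that had not attached were discarded. The stroma-vascular cells were released from the fat with collagenase and kept in the same medium for the same time, and again only attached cells gave RNA. No other treatment or allele is named for either group, and the sources used here do not give strain, sex, age or genotype. Attachment to plastic was thus the selection step in both groups, so each can hold any cell type that attaches within 24 h. Nothing in the labels says that the 3 samples of a group came from separate animals or cultures, and the spread within each group may therefore be technical. Each p-value rests on a spread pooled over all 14 groups, which includes that between different preadipocyte lines.

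Peritoneal macrophages are resident phagocytes of the body cavity that engulf particles, kill microbes with an oxidase of the membrane and secrete chemokines and protease inhibitors. The stroma-vascular fraction is what remains of fat after the adipocytes are removed, a mixture of preadipocytes, fibroblasts, endothelial cells, pericytes and blood-derived cells, tissue macrophages among them. Both fractions can therefore contain macrophages, and in bulk samples such as these, fewer cells of a type and less RNA per cell cannot be told apart.

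Spot intensities were quantile normalized over all 40 arrays and are given below in ku (1 ku is 1000 intensity units). The median over all spots was 52.6 ku. Differences are macrophages minus stroma-vascular cells on the log2 scale after an offset of 36.4 ku was added, with the SE of a limma fit and a p-value adjusted by Benjamini-Hochberg over all 5760 spots. Spots with an adjusted p under 0.05 are said to be called. Because the offset and an uncorrected background both compress differences, the ratio of the 2 group means is also given, and it too understates a change in RNA where background is part of the signal. The raw median intensity was between 34834 and 73599 in the macrophage arrays and between 28689 and 59514 in the stroma-vascular arrays. Replicate 1 was the dimmest array in each group. Over all spots, correlations within the macrophage group were between 0.916 and 0.968, those within the stroma-vascular group between 0.917 and 0.966, and those between the groups between 0.900 and 0.952. Stroma-vascular replicate 1 correlated with its own group at 0.917 and 0.928, and 4 of the 6 correlations of macrophage arrays with the other 2 stroma-vascular arrays were higher.

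The macrophages were higher in a small group of genes for phagocytosis, the oxidative burst, a chemokine and protease inhibitors, and lower in 2 of 9 interferon-induced genes, a basement membrane collagen and the macrophage growth factor. Limma's test called 26 of 5760 spots (0.451%), 16 higher in macrophages (0.278%) and 10 lower (0.174%), whereas 310 had an unadjusted p under 0.05. The count was 17 without stroma-vascular replicate 2 and 21 without both replicate 1 arrays, and it was 10 with median scaling of the arrays in place of quantile normalization. None of the 26 overlapped between the groups, and neither did 868 of all spots (15.1%), of which 430 were higher in macrophages (7.47% of all) and 438 lower (7.6%). Of the called spots 19 carry 1 gene symbol. Over the 3284 genes named on the array, each by its brightest spot, 18 were called (0.548%), 12 higher and 6 lower. Of the 3284, 203 had an unadjusted p under 0.05 and 52.0% had a positive difference. The median difference over all 3284 was 0.01, a value that the normalization itself holds near 0.

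**Figure D1:**
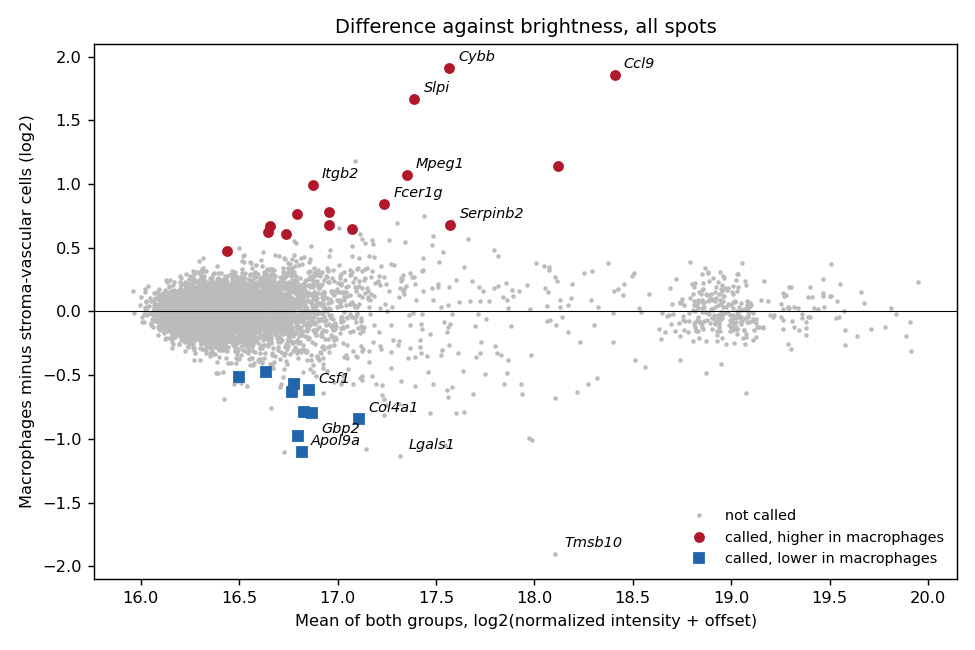
Each point is 1 of the 5760 spots, with the mean of both groups on the x axis and macrophages minus stroma-vascular cells on the y axis, both on the log2 scale. Red circles are the 16 spots called higher in macrophages and blue squares the 10 called lower; Cybb and Ccl9 lie at the top, and Tmsb10, at the bottom, was not called.

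Cybb, the catalytic subunit of the phagocyte NADPH oxidase, showed the largest difference of the called genes. Its normalized intensity was 432, 282 and 320 ku in the macrophage samples, against 65.9, 63.2 and 62.3 ku in the stroma-vascular samples. All 3 macrophage samples were far above all 3 stroma-vascular samples, which lay close together. The mean was 5.4 times higher in macrophages, a log2 difference of 1.91 ± 0.28 (adjusted p = 1.53e-04). In the RefSeq sequence around the start of Cybb (build GRCm38.p6), chosen because this gene led the comparison, a GAGGAA core as bound by ETS factors of myeloid cells such as PU.1 was found on the opposite strand just after the start. The stretch chrX:9469298-9469327 on the minus strand is shown with that match in capitals.
Cybb: tgctgttttcatTTCCTCatcagaagaaga
The match covers bases 10 to 15 counted from the start. GAGGAA was searched on both strands of windows reaching 250 bases before and 50 bases after the gene start, and 28.3% of 32851 such windows hold it. It was present in 2 of the 8 genes called higher that have a window, Cybb and Plek, and in 0 of the 6 called lower, shares that can be read only against that background.

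Genes of phagocytosis and macrophage identity were next. Mpeg1, which encodes perforin-2, a pore-forming protein of phagocytes, had 159, 266 and 205 ku in macrophages against 72.9, 89.0 and 75.7 ku in stroma-vascular cells. The groups did not overlap, and the difference was 1.07 ± 0.15 (adjusted p = 7.15e-05), or 0.98 and no longer called with median scaling (adjusted p = 0.0541). Fcer1g, the signalling chain shared by several Fc receptors, had 155, 163 and 194 ku in macrophages against 64.5, 84.5 and 89.5 ku in stroma-vascular cells. Its difference of 0.84 ± 0.19 (adjusted p = 0.0277) was the least secure of these, since the call was lost whichever of the 6 arrays was left out, with values between 0.75 and 0.90. Itgb2, the beta chain of the leukocyte integrins, had 244, 59.1 and 145 ku in macrophages against 47.7, 48.4 and 50.2 ku in stroma-vascular cells. The stroma-vascular samples were close together, while the macrophage samples spread over a wide range, and the second lay only just above the other group. Its difference was 0.99 ± 0.18 (adjusted p = 0.00325). Without macrophage replicate 1 it was 0.63 and no longer called (adjusted p = 0.0598), and without macrophage replicate 2 it was 1.41.

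Cybb, Mpeg1, Itgb2 and Fcer1g were 4 of the 11 macrophage identity genes measured, and the other 7 were not called and lay between -0.08 and 0.20. The list's median was 0.11, against 0.01 over all genes. Those 7 included the efferocytosis receptor gene Mertk (0.20), the integrin gene Itgax (0.11), the scavenger receptor gene Cd163 (-0.06) and the signalling gene Vav1 (-0.02). The same 4 genes make up the calls of the list of phagocytosis and oxidase genes, which has 6 measured members and a median of 0.92. Its other members were Tlr4 and Vav1. Of the 10 macrophage markers used to check the label, 5 were measured, and Cybb, Fcer1g, Itgb2 and Mpeg1 were higher in the samples labelled as macrophages, while Vav1 had 46.9 ± 3.24 ku in macrophages and 47.9 ± 5.0 ku in stroma-vascular cells (SD, n = 3 each). The 4 that were higher are the same called genes again, so the check adds no separate evidence for the label.

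**Figure D2:**
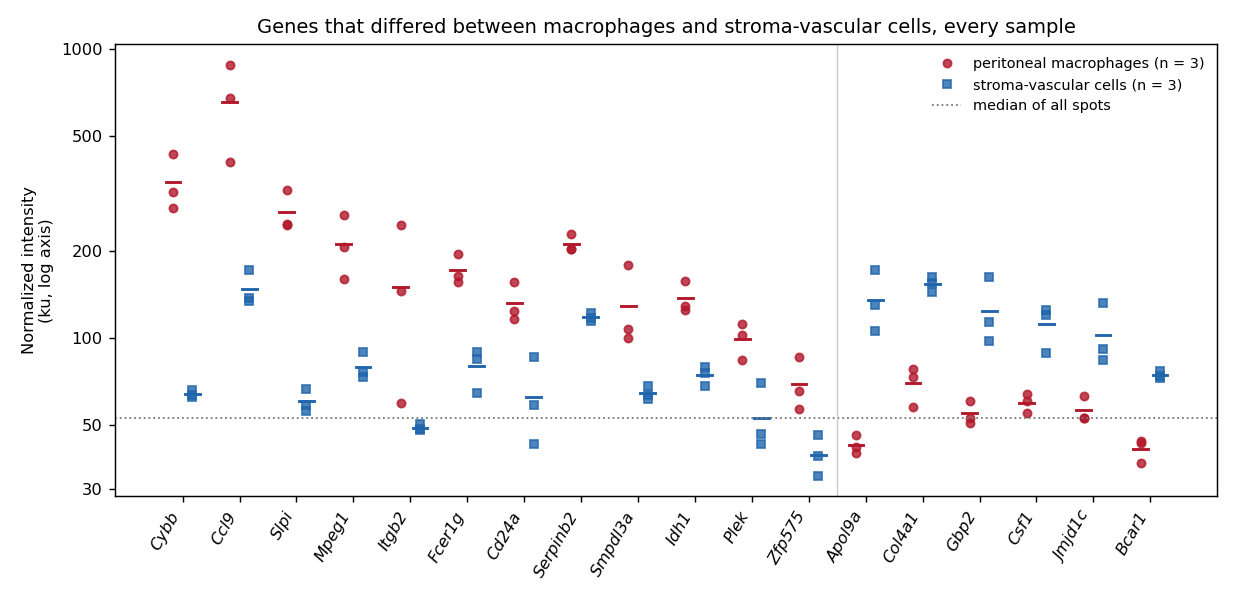
Normalized intensity in ku, on a log axis, of the 18 called genes in the 3 macrophage samples (red circles, left of each pair) and the 3 stroma-vascular samples (blue squares, right); bars are group means and the dotted line is the median of all spots. The 12 genes left of the vertical line were higher in macrophages and the 6 right of it lower, and within each gene no red point lies among the blue ones, although the second macrophage sample comes close for Itgb2.

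Secreted products followed. Ccl9, a chemokine gene of myeloid cells, had 881, 404 and 678 ku in macrophages against 171, 134 and 137 ku in stroma-vascular cells. The gene was bright in both groups, at a mean percentile of 98.3 among the spots of the macrophage arrays and 92.5 among those of the stroma-vascular arrays, and the macrophage samples were all higher. The mean ratio was 4.44 and the difference 1.85 ± 0.29 (adjusted p = 2.73e-04). Csf1, the growth factor that macrophages need to survive, went the other way, with 63.8, 54.6 and 60.1 ku in macrophages against 125, 120 and 88.7 ku in stroma-vascular cells. It was lower in every macrophage sample, by a difference of -0.61 ± 0.13 (adjusted p = 0.0196). That call was lost without macrophage replicate 2 (-0.58) or 3 (-0.62) and without stroma-vascular replicate 1 (-0.55) or 2 (-0.57). Ccl9 and Csf1 were the 2 called genes among 7 chemokines and cytokines measured. The other 5, Tgfb2, Cxcl14, Cx3cl1, Pdgfa and Cxcl12, lay between -0.12 and 0.34, and the list's median was 0.01. Both measured receptors of the receptor list, Fgfr1 and Ifngr2, were not called.

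Protease inhibitors held the difference with the smallest p-value. Slpi, which encodes a secreted inhibitor of neutrophil elastase and related proteases, had 323, 248 and 244 ku in macrophages against 55.9, 66.3 and 58.3 ku in stroma-vascular cells. The groups were widely separated with little spread inside either. The mean was 4.52 times higher in macrophages and the difference 1.67 ± 0.14 (adjusted p = 3.69e-09). Serpinb2, the plasminogen activator inhibitor of monocytes and macrophages, had 202, 202 and 228 ku in macrophages against 114, 117 and 122 ku in stroma-vascular cells. Each group was tight and the macrophages were higher by 0.68 ± 0.11 (adjusted p = 7.86e-04). With median scaling the difference was 0.51 and no longer called (adjusted p = 0.487). These were 2 of 7 members measured of the list of protease inhibitors and proteases, and the others lay between -0.58 and 0.28 and were not called. Among them the collagen chaperone gene Serpinh1 had 52.9, 40.1 and 33.1 ku in macrophages against 123, 60.5 and 66.8 ku in stroma-vascular cells, a difference of -0.58 ± 0.17 (adjusted p = 0.221).

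A further 5 genes called higher in macrophages were in none of the lists. Idh1, the cytosolic isocitrate dehydrogenase that makes NADPH, had 157, 125 and 129 ku in macrophages against 67.7, 78.9 and 75.3 ku in stroma-vascular cells. Its difference was 0.65 ± 0.13 (adjusted p = 0.00525), and the call was lost without macrophage replicate 1 (0.57). Cd24a, a small glycosylated surface protein, had 123, 155 and 116 ku in macrophages against 85.5, 58.2 and 42.8 ku in stroma-vascular cells. The macrophage samples were all higher although the stroma-vascular samples were widely spread, and the difference was 0.78 ± 0.17 (adjusted p = 0.0205). Smpdl3a, which encodes a phosphodiesterase related to acid sphingomyelinase, had 99.3, 178 and 107 ku in macrophages against 61.3, 68.2 and 63.3 ku in stroma-vascular cells, a difference of 0.68 ± 0.15 (adjusted p = 0.0249). Plek, pleckstrin, a protein kinase C substrate of blood cells, had 111, 83.8 and 102 ku in macrophages against 46.4, 42.7 and 69.5 ku in stroma-vascular cells, a difference of 0.61 ± 0.13 (adjusted p = 0.0223). These last 3 calls rested on more than 1 array. Cd24a lost its call without macrophage replicate 1 (0.82) or 2 (0.68) and without stroma-vascular replicate 2 (0.76) or 3 (0.64). Smpdl3a lost it without macrophage replicate 2 (0.47) and without stroma-vascular replicate 1 (0.66), 2 (0.71) or 3 (0.67). Plek lost it without macrophage replicate 1 (0.54) or 3 (0.59) and without stroma-vascular replicate 1 (0.56) or 2 (0.53).

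The fifth was the zinc finger gene Zfp575, with 85.3, 56.4 and 65.3 ku in macrophages against 33.2, 46.0 and 38.8 ku in stroma-vascular cells. It was the smallest of the 12 differences at 0.47 ± 0.11 (adjusted p = 0.0407), and the call was lost without macrophage replicate 1 (0.36) or 3 (0.49) and without stroma-vascular replicate 1 (0.41) or 3 (0.47). The myeloid inhibitory receptor gene Pilra was called only by its second spot, which is named here after its values were seen. That spot had 114, 58.9 and 108 ku in macrophages against 43.6, 45.3 and 49.5 ku in stroma-vascular cells, a difference of 0.62 ± 0.15 (adjusted p = 0.0424). The brighter Pilra spot over the series, which represents the gene, had means of 59.5 ku in macrophages and 50.7 ku in stroma-vascular cells and a difference of 0.14 ± 0.10, so the 2 spots of this gene did not give the same call.

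Among the genes lower in macrophages, the interferon-induced genes Apol9a and Gbp2 came first with a collagen chain between them. Apol9a, an apolipoprotein L gene with a near-identical neighbour, Apol9b, from which the spot may not tell it apart, had 39.7, 46.0 and 41.9 ku in macrophages against 105, 130 and 171 ku in stroma-vascular cells. In macrophages it was below the median spot, and the ratio of means, macrophages over stroma-vascular cells, was 0.314. The difference was -1.10 ± 0.18 (adjusted p = 6.90e-04). Gbp2, a guanylate-binding GTPase of the interferon response, had 52.9, 60.4 and 50.7 ku in macrophages against 97.1, 113 and 162 ku in stroma-vascular cells. Its macrophage values lay around the median spot and did not overlap with the other group, and the difference was -0.80 ± 0.13 (adjusted p = 7.86e-04). These were 2 of 9 interferon-induced genes measured. The other 7 were not called, lay between -0.16 and 0.32 and included the viral RNA sensor gene Oas2 (0.32) and the dynamin-like antiviral gene Mx2 (0.19), and the list's median was 0.05.

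Because Apol9a and Gbp2 changed in the same direction, the bases just before their starts are shown from RefSeq (GRCm38.p6), with the core letters of an interferon-stimulated response element (GAAA, any 2 bases, GAAA) in capitals where they occur on the opposite strand. The stretches are chr3:142620563-142620662 on the plus strand for Gbp2 and chr15:77411081-77411180 on the minus strand for Apol9a, each ending 1 base before the start.
Gbp2: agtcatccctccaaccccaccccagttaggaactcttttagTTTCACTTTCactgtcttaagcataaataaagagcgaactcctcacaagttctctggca
Apol9a: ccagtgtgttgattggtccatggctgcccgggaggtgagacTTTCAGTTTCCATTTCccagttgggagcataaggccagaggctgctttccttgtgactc
In both genes a match covers bases -59 to -50, and in Apol9a a second match at -53 to -44 overlaps the first. Apol9a has 2 listed starts, of which the first was used. Among 32851 windows 1131 (3.44%) hold the letters on either strand. Of the 6 genes called lower, all with a window, Apol9a and Gbp2 held them, and of the 8 genes called higher with a window only Cybb did, in 3 places from -168 to -20. The matches are letters in a window and say nothing of whether a factor binds there. No window was at hand for Itgb2, Cd24a, Smpdl3a or Zfp575.

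Col4a1, a chain of type IV collagen in basement membranes, had 57.5, 77.8 and 73.0 ku in macrophages against 163, 154 and 143 ku in stroma-vascular cells. All macrophage samples were lower, by -0.85 ± 0.16 (adjusted p = 0.00353), and the call was lost without macrophage replicate 1 (-0.76). It was 1 of 4 basement membrane genes measured, and Agrn, Col18a1 and Lama1 lay between -0.12 and 0.04. Jmjd1c, a gene of the JmjC histone demethylase family, had 52.7, 62.6 and 52.8 ku in macrophages against 83.7, 91.5 and 131 ku in stroma-vascular cells, a difference of -0.57 ± 0.11 (adjusted p = 0.00316) that was no longer called without stroma-vascular replicate 3 (-0.43). Bcar1, the p130Cas scaffold of focal adhesions, had 43.0, 36.9 and 43.9 ku in macrophages against 76.6, 72.6 and 73.8 ku in stroma-vascular cells. Both groups were tight, but the difference of -0.51 ± 0.12 (adjusted p = 0.0428) was near the threshold and its call was lost whichever of the 6 arrays was left out, with values between -0.54 and -0.47.

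The list of fibroblast and interstitial matrix genes had 13 measured members and 0 called by limma, against 0.548% of all genes. Of the 13, 5 had an unadjusted p under 0.05, against 203 of all 3284 named genes. The list's median was -0.15, and 8 of the 13 had negative differences, where 52.0% of all named genes had positive ones. Largest among its positive differences were those of Eln (0.27), which was higher in each macrophage sample, and Timp2 (0.15), which overlapped. Without any scaling between arrays the list's median was 0.06, where that of all spots was 0.28. Loxl1, which crosslinks elastin, came closest, with 37.1, 32.3 and 28.9 ku in macrophages against 59.0, 66.3 and 105 ku in stroma-vascular cells (-0.69 ± 0.18, adjusted p = 0.098). Lgals1, the beta-galactoside-binding lectin galectin-1, had 77.9, 70.8 and 73.2 ku in macrophages against 255, 127 and 261 ku in stroma-vascular cells. The groups were apart, but the difference of -1.13 ± 0.39 was not called (adjusted p = 0.491). The largest difference of any named gene that was not called was that of Tmsb10, which binds actin monomers, with 173, 68.1 and 105 ku in macrophages against 520, 670 and 377 ku in stroma-vascular cells. No sample of the groups overlapped, and the difference was -1.91 ± 0.50 (adjusted p = 0.101). The SEs of these 2 spots were well above the median SE of 0.134, and in a fit of the 2 compared groups alone both were called, Tmsb10 at an adjusted p of 0.00731 and Lgals1 at 0.043. That fit kept only 11 of the 18 genes called in the fit of all 14 groups. Over 23 alternative settings the adjusted p ranged from 5.45e-06 to 0.861 for Tmsb10 and from 0.0312 to 1 for Lgals1.

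Other lists gave few or no calls. Of 11 genes of the actin cytoskeleton and adhesion list only Itgb2 was called. Of 7 lysosome and cathepsin genes 0 were called, with 3 at an unadjusted p under 0.05, against 203 of all 3284 named genes. The acid ceramidase gene Asah1 was nearest, with 80.3, 72.4 and 67.8 ku in macrophages against 41.6, 46.8 and 44.8 ku in stroma-vascular cells, a difference of 0.44 ± 0.11 (adjusted p = 0.0504), and it passed the threshold in 7 of 22 alternative settings. Of 9 antigen presentation genes 0 were called, with 1 at an unadjusted p under 0.05. The class I light chain gene B2m spread over 585, 338 and 336 ku in macrophages and 406, 717 and 947 ku in stroma-vascular cells, and the groups overlapped. Complement and coagulation genes (3 measured), signalling genes of myeloid cells (9), immediate early and heat shock genes (13), cell cycle genes (15), glycolysis genes (6), oxidative phosphorylation genes (14), cholesterol and lipoprotein genes (6) and genes of metal binding, iron and detoxification (6) had 0 calls each, with 0 to 3 members at an unadjusted p under 0.05. The medians of these 8 lists lay between -0.20 and 0.13. Members at an unadjusted p under 0.05 were 3 of 6 for metal binding, iron and detoxification (Cp 0.46, Selenop 0.61, Mt1 -0.64). For complement and coagulation they were 2 of 3 (Thbd -0.44, F7 0.29). Over all named genes they were 203 of 3284.

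**Figure D3:**
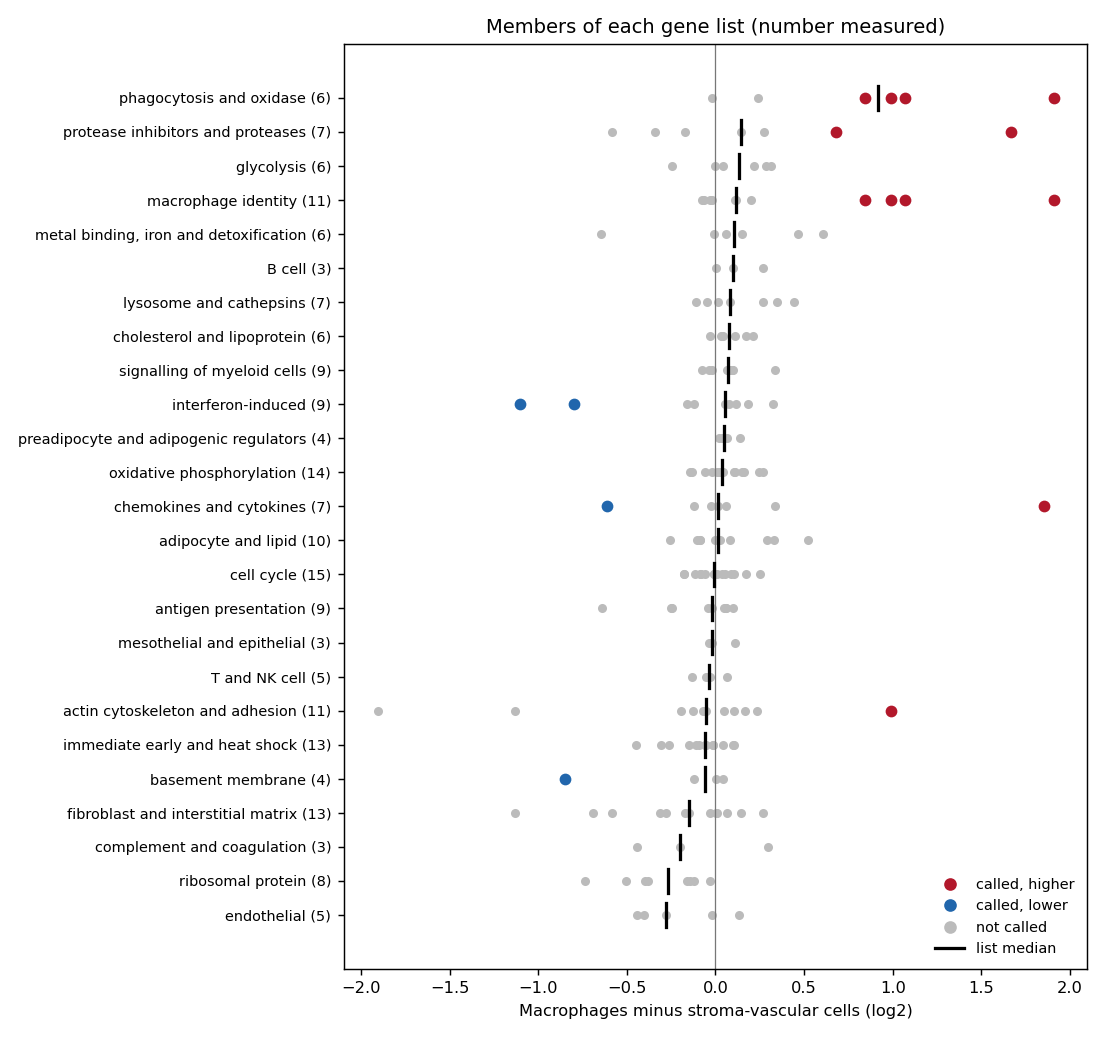
Difference between macrophages and stroma-vascular cells (log2, x axis) of each measured member of the gene lists with 3 or more members, lists ordered by their median (black bar), with the number measured in brackets. Red and blue points are called higher and lower in macrophages, grey points are not called; the phagocytosis and oxidase list has the highest median, 0.92, and the endothelial and ribosomal protein lists the lowest, -0.28 and -0.27.

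Markers of other cell types that either preparation could hold were measured in part. Of the fibroblast and preadipocyte markers used to check the label only Timp2 was measured, and it overlapped between the groups (0.15 ± 0.32). Of the endothelial markers of that check only Cdh5 was measured. The stroma-vascular label could therefore hardly be checked by these markers. The endothelial list had 5 measured genes and 0 called (3 at an unadjusted p under 0.05, against 203 of all 3284 named genes), with a median of -0.28. Its defining member Cdh5, the cadherin of endothelial junctions, had 59.6, 43.7 and 50.1 ku in macrophages against 64.0, 91.5 and 83.8 ku in stroma-vascular cells (-0.41 ± 0.14, adjusted p = 0.46). Thbd (-0.44) and Eng (-0.28) were also negative, Tal1 was at -0.02, and Sox17 (0.13) was higher in each macrophage sample. The summed intensity of the 5 genes was between 256 and 283 ku in macrophages and between 295 and 408 ku in stroma-vascular cells. The endothelial sum was therefore lower in each macrophage sample than in each stroma-vascular sample, as Col4a1 was. It was not alone in this. The fibroblast and interstitial matrix list summed to between 790 and 958 ku in macrophages and between 1009 and 1204 ku in stroma-vascular cells. The actin cytoskeleton and adhesion list summed to between 1871 and 2108 ku in macrophages and between 2157 and 2318 ku in stroma-vascular cells. The part of any cell type in the Col4a1 result was not tested. The 3 B cell genes summed to between 254 and 324 ku in macrophages and between 217 and 268 ku in stroma-vascular cells, and the 5 T and NK cell genes to between 200.6 and 238 ku in macrophages and between 216 and 248 ku in stroma-vascular cells. The 2 mast cell genes Mcpt4 and Cma1 summed to between 99.6 and 126 ku in macrophages and between 116 and 127 ku in stroma-vascular cells, and the 2 erythroid genes to between 111 and 162 ku in macrophages and between 119 and 181 ku in stroma-vascular cells. The 3 mesothelial and epithelial genes summed to between 130 and 133 ku in macrophages and between 115 and 135 ku in stroma-vascular cells. These ranges overlapped for each of the 5 lists, and 0 of their genes were called or had an unadjusted p under 0.05. Fat cell and precursor lists also gave 0 calls, of 10 adipocyte and lipid genes (median 0.01) and 4 preadipocyte regulators (median 0.05), Mylk was the only pericyte and smooth muscle gene measured (-0.08), and the macrophage list summed to between 1164 and 1400 ku in macrophages and between 663 and 679 ku in stroma-vascular cells. The macrophage sum includes Cybb, Mpeg1, Itgb2 and Fcer1g, which were called for being higher in macrophages, so it adds no separate evidence. No spot of these arrays reads 0, and their lowest raw value was at least 13139, so none of these markers can be called absent from either group.

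Levels in the rest of the series are given for description. Macrophages had the highest mean of the 14 groups for 11 of the 12 genes called higher, and stroma-vascular cells the highest for 5 of the 6 called lower. Over all 3284 genes, 4.17% were highest in macrophages and 4.51% in stroma-vascular cells, but the called genes were picked for being high in that same group, so their ranks are a description and support nothing. The exception among the first was Fcer1g, with 171 ± 20.6 ku in macrophages (SD, n = 3) and 275 ± 150 ku in the macrophage line Raw 264 (n = 3), which overlap within their spread. The exception among the second was Col4a1, with 153 ± 9.59 ku in stroma-vascular cells and 244 ± 53.2 ku in 3T3-F442A adipocytes. Slpi stood alone, with 272 ± 44.6 ku in macrophages, while the highest of the other 12 groups, the macrophage line J774, had 84.2 ± 13.8 ku (n = 2). The preadipocyte lines were close to J774 for Slpi, at 81.3 ± 28.3 ku (n = 4), with the highest line at 113 ku. Serpinb2 marked both plated primary fractions, with 211 ± 15.1 ku in macrophages and 118 ± 3.85 ku in stroma-vascular cells, while the 12 other groups had means between 32.6 and 51.5 ku and no single sample above 62.7 ku. Cybb in Raw 264 ran from 62.1 to 431 ku over the 3 samples, so this line spanned the whole gap between stroma-vascular cells and macrophages, and J774 (66.5 ± 6.9 ku, n = 2) was near the stroma-vascular level of 63.8 ± 1.86 ku. Csf1 averaged 59.5 ± 4.64 ku in macrophages and 111 ± 19.7 ku in stroma-vascular cells, and the 12 other groups had means between 46.6 and 68.1 ku. Gbp2 and Apol9a averaged 124 ± 33.7 and 135 ± 33.5 ku in stroma-vascular cells, against highest means among the 12 other groups of 76.7 ± 23.4 ku in inguinal adipocytes and 77.6 ± 54.9 ku in liver.

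**Figure D4:**
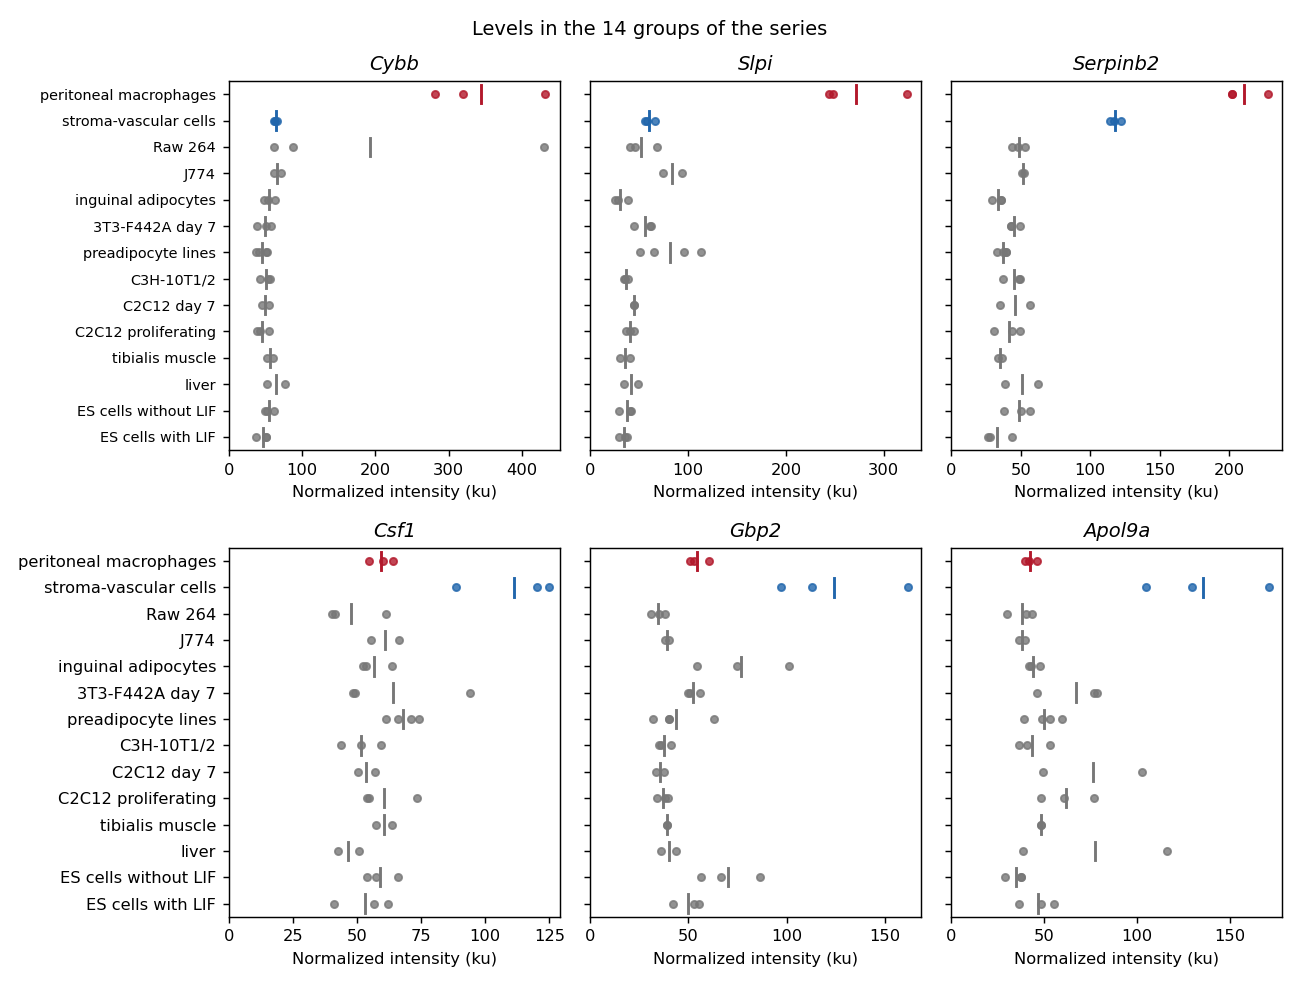
Normalized intensity in ku (x axis, from 0) of 6 genes in every group of the series, macrophages in red at the top, stroma-vascular cells in blue below, the other 12 groups in grey; points are samples (1 point per preadipocyte line) and bars are means. Cybb is high in macrophages and in 1 of the 3 Raw 264 samples, Slpi in macrophages, Serpinb2 in both plated primary groups, and Csf1, Gbp2 and Apol9a in stroma-vascular cells.

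A second comparison of macrophages with fat cell precursors was available that shares no array with the first, the macrophage lines Raw 264 (3 samples) and J774 (2) against 4 preadipocyte lines (5 samples, of which the 2 of 3T3-L1 were averaged). These are continuous cell lines, grown in DMEM with 10% FCS at low density in the case of the macrophage lines. It called 30 of 5760 spots (0.521%), 27 higher in the macrophage lines (0.469%) and 3 lower (0.0521%). Only 3 spots were called in both comparisons, Ccl9, Fcer1g and the second Pilra spot, which is 11.5% of the calls in primary cells and 10% of those in the lines. They were higher in both. Ccl9 was higher by 1.23 ± 0.24 in the lines (adjusted p = 0.00681) and Fcer1g by 1.16 ± 0.16 (adjusted p = 6.68e-05). Of the 26 spots called in primary cells 21 had the same sign in the lines, 12 of the 16 higher and 9 of the 10 lower, against 49.8% of all spots, and of the 30 called in the lines 13 had the same sign in primary cells. Cybb was 0.73 ± 0.23 in the lines (adjusted p = 0.137), Itgb2 0.56 ± 0.15 (adjusted p = 0.0927) and Mpeg1 0.27 ± 0.12 (adjusted p = 0.358).

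The difference between the 2 comparisons was tested in the same fit and called for 7 spots (0.122%), 3 higher in the primary comparison (0.0521%) and 4 lower (0.0694%). Slpi differed most, with 1.67 in the primary cells and -0.17 ± 0.12 in the lines, a difference of 1.83 ± 0.19 (adjusted p = 2.41e-07). Cd24a had 0.78 in primary cells and -0.32 ± 0.14 in the lines, a difference of 1.10 ± 0.22 (adjusted p = 0.0296). The Cd24a difference was not called with median scaling (0.96), without scaling (1.14), with the 5th percentile subtracted (3.03) or with the compared groups alone (1.10), and that of Slpi not without scaling (1.78) or with the subtraction (3.51). For Cybb (1.17 ± 0.36, adjusted p = 0.244), Mpeg1 (0.80 ± 0.19, adjusted p = 0.0775) and Itgb2 (0.43 ± 0.24, adjusted p = 0.642) the difference between the comparisons was not called, so they were not shown to behave unlike each other in the 2 settings.

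**Figure D5:**
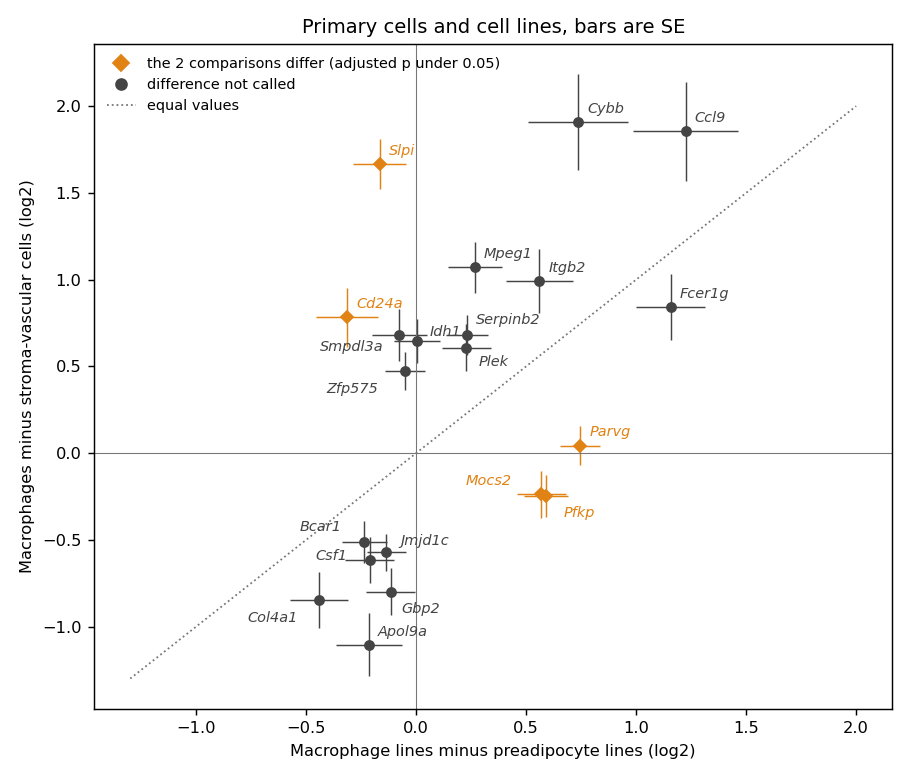
Log2 difference of macrophages minus stroma-vascular cells (y axis) against macrophage lines minus preadipocyte lines (x axis) for the 18 genes called in the first and the named genes whose 2 differences were unequal; bars are SE and the dotted line marks equal values. Orange diamonds are genes called in the test of the difference; Slpi and Cd24a lie left of 0 on the x axis, and Parvg, Pfkp and Mocs2 lie to its right near or below 0 on the y axis.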

How the data were processed

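Total RNA was extracted with Tripure, treated with DNase, copied into cDNA labelled with 33P and hybridized to Resgen filters, per the labels' protocols, and spots were quantified with Imagene. The authors deposited linear spot intensities, 5760 for each of 40 samples. The sources used here do not give the version of that software or whether background was corrected or arrays scaled. Depth has no meaning for arrays, whose number limits the precision. Intensities were quantile normalized, 36370 (their 10th percentile) was added to each, and log2 values were fitted with limma 3.58.1 (R 4.3.3; lmFit, contrasts.fit and eBayes, two-sided tests). All 14 groups shared 1 fit, in which the 2 samples of 3T3-L1 were averaged. For the median spot the SD within macrophages and stroma-vascular cells was 0.128 and the SE of their difference 0.134.

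The platform annotation gives 1 gene symbol for 3420 spots, several for 98 and none for 2242. Gene identifiers linked 3346 of the 3420 to current symbols of GRCm38.p6, which served for names and RefSeq promoter sequences. A gene is represented by its brightest spot over all samples. The named genes were up to 12 called genes per direction whose samples do not overlap, up to 4 members of each of 29 lists with the smallest p, and the markers used to check the label. The members and lists were chosen with earlier results of these data known. Alternatives were other scalings, offsets, filters, fits and array weights, and leaving out each array; leaving out both replicate 1 arrays, and keeping the offset after subtraction, were added after seeing the data. In simulated data the fit for this comparison recovered 57% of 100 spots changed by 0.5 and 98% of 100 changed by 1, with 10 false calls among 5760 spots. These rates need not hold for spots with an SE far above the median, such as Tmsb10 (-1.91 ± 0.50), which was not called. Figures used matplotlib 3.10.9 in Python 3.11.15.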

Additional observations from a re-analysis of the deposited data

Results flagged for a closer look

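The test of the difference between the primary comparison and the cell line comparison picked out 7 spots. Cd24a (1.10) and Slpi (1.83), described above, were higher in the primary comparison, as was 1 spot without a gene name, spot 1563 (0.74). That spot had 119, 90.6 and 127 ku in macrophages against 53.5, 47.8 and 51.0 ku in stroma-vascular cells.

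Lower in the primary comparison was the phosphofructokinase gene Pfkp (-0.83 ± 0.16, adjusted p = 0.015), with -0.25 ± 0.12 in primary cells and 0.59 ± 0.10 in the lines. The molybdopterin synthase gene Mocs2 (-0.81 ± 0.17, adjusted p = 0.0437) had -0.24 ± 0.13 in primary cells and 0.57 ± 0.11 in the lines. Its rise in the lines was mainly that of J774, at 135 ± 12.6 ku (SD, n = 2). Raw 264 had 61.8 ± 9.62 ku (n = 3) and the preadipocyte lines 51.3 ± 8.98 ku (n = 4). Parvg, a parvin of the focal adhesion complexes of blood cells (-0.70 ± 0.14, adjusted p = 0.0296), had 0.04 ± 0.11 in primary cells and 0.75 ± 0.09 in the lines. The fourth was spot 3693, without a gene name (-0.74). Of the 16 fits without 1 array, Slpi kept its call in 16, Pfkp in 14, Cd24a in 10, Parvg in 8 and Mocs2 in 5, and none of the 16 turned a direction for these genes.

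Idh1 in the 4 preadipocyte lines was 85.1 ku in Ob1774, far from the 61.8 ku of 3T3-L1, 63.2 ku of 3T3-F442A and 60.2 ku of Hgfu. It was the 1 of 18 called genes so picked out in this group, and chance flags about 1 group in 20.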

How the results depend on the processing

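For macrophages against stroma-vascular cells the 26 calls became 10 with median scaling, 3 with no scaling (3 higher and 0 lower, against 16 and 10; all spots then shifted by 0.28), 0 with the 5th percentile subtracted and the offset falling to 3.08 ku (309 spots then had an unadjusted p under 0.05), 418 with array weights, and 15 (10 of them shared) where the compared groups were fitted alone and replicate numbers formed a block. With the subtraction but the first offset kept, the count was 26. The other alternatives gave 18 to 37, and leaving out 1 array 17 to 22. For the lines the 30 calls (27 higher, 3 lower) became 6 with median scaling (6 higher, 0 lower), 0 without scaling (120 at an unadjusted p under 0.05), 7 with the subtraction and 10 with the compared groups alone, and leaving out 1 array gave 9 (J774 replicate 1) to 87 (Raw 264 replicate 1). For the difference between comparisons the 7 calls (3 higher, 4 lower) became 1 (higher), 0 (31 unadjusted), 0 (447 unadjusted) and 3 under the same 4 settings and 15 with 4 times the offset, and leaving out 1 array gave 1 (stroma-vascular replicate 2 or 3) to 24 (Raw 264 replicate 1). The cause was not tested.

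None of the 18 called genes changed direction under any alternative it was run in. Of the 18 called genes 7 kept the call in all 6 fits without 1 array (Cybb, Ccl9, Slpi, Mpeg1, Serpinb2, Apol9a and Gbp2), 7 kept it with median scaling (Cybb, Ccl9, Slpi, Itgb2, Apol9a, Gbp2 and Jmjd1c, but not Mpeg1 or Serpinb2) and 3 without scaling (Cybb, Ccl9 and Slpi). With the compared groups alone in the fit, 11 of the 18 kept the call. Itgb2, Cd24a, Smpdl3a, Plek, Zfp575, Csf1 and Jmjd1c lost it there. That fit called 20 spots, of which 14 were among the 26. Of 84 uncalled list genes 59 were not called under any alternative, and 24 were called with array weights. Same-numbered arrays correlated at -0.03, -0.02 and 0.11 in their deviations after quantile normalization, so the numbers were not taken to pair the samples. That normalization removes array-wide shifts, which this check therefore cannot see. The raw median rose with the replicate number in both groups, from 34834 to 72914 and 73599 in macrophages and from 28689 to 49944 and 59514 in stroma-vascular cells. No block for the membrane could be run, since the labels name no membrane.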

Other observations

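All 8 ribosomal protein genes measured had negative differences, also with median scaling, whereas without scaling 5 of the 8 were negative and all 8 lay below the median of all spots. The 8 ran from -0.74 to -0.03, where 52.0% of all named genes had positive differences. The median of the 8 was -0.27 in primary cells and 0.22 in the comparison of the lines. In primary cells 0 of them were called by limma, 2 having an unadjusted p under 0.05, against 203 of all 3284 named genes. Rpl15 was called in 3 of 23 alternative settings, at an adjusted p of 0.0257 with the compared groups alone (0.00379 to 1 over the settings), and Rpl36 and Rpl22 were called with array weights. Rpl15 had 94.1, 70.2 and 89.8 ku in macrophages against 163, 144 and 188 ku in stroma-vascular cells (-0.74 ± 0.27, adjusted p = 0.537), and Rpl36 had 62.9, 80.1 and 86.2 ku in macrophages against 127, 123 and 118 ku in stroma-vascular cells (-0.50 ± 0.23, adjusted p = 0.856). Neither gene overlapped between the groups, a state shared by 15.1% of all spots. The other measured members of the list did overlap. The list's sum also overlapped, between 446 and 775 ku in macrophages and between 767 and 947 ku in stroma-vascular cells. The 8 genes are those measured of 86 listed. In primary cells the list's median stayed between -0.71 and -0.08 over 23 alternative settings, and without scaling it was -0.12, where the median of all spots was 0.28.

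Plin5, a lipid droplet coat gene, was higher in each macrophage sample, with 184, 179 and 186 ku in macrophages against 80.6, 128 and 149 ku in stroma-vascular cells (0.52 ± 0.18, adjusted p = 0.483). Lipoprotein lipase, Lpl, had 170, 139 and 179 ku in macrophages against 124, 105 and 138 ku in stroma-vascular cells (0.33 ± 0.17, adjusted p = 0.933). The adipokine gene Retn had 30.9, 34.0 and 31.6 ku in macrophages against 61.4, 44.2 and 33.1 ku in stroma-vascular cells, which overlap. None of these 3 genes was called.

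Of the 26 called spots 7 have no gene name here. The brightest, spot 4239, had 530, 326 and 333 ku in macrophages against 128, 173 and 170 ku in stroma-vascular cells (1.14 ± 0.17, adjusted p = 1.90e-04), and the one with the largest fall, spot 3448, had 48.9, 44.7 and 40.9 ku in macrophages against 102, 133 and 139 ku in stroma-vascular cells (-0.98 ± 0.17, adjusted p = 0.00174).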
